A study of Homo sapiens with 36 samples.

Results

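Jurkat cells, a human line of leukaemic T lymphocytes, were compared with and without exposure to cigarette smoke extract (CSE), an aqueous extract of smoke. The comparison holds the 6 arrays whose source label names Jurkat and smoke and the 12 whose source label names Jurkat and control, 18 of the 36 arrays of the series. The exposed cells received 20% CSE and the control cells 0% CSE. The stated exposure lay between 2 and 6 h, with no time given for a single sample. The other 18 arrays hold 6 CSE and 12 control samples of DLD-1, an epithelial line from a human colorectal adenocarcinoma, and serve here only to test where the Jurkat response differed from another line. Total RNA from flask cultures was labelled with biotin and hybridised to Illumina bead arrays, 1 sample per array. The labels name no genetic change in any group and do not say whether the arrays of a group came from separate flasks, so the p-values rest on array-to-array spread that may be partly or wholly technical. Each line is 1 established tumour line, so the results describe that line and not T cells or epithelium at large.

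Reactive smoke constituents damage proteins and thiols, and cells answer through a few well-known programmes. Misfolded protein frees the transcription factor HSF1, which binds heat shock elements and switches on chaperones of the HSP70, HSP40 and HSP90 families. Oxidants act through NRF2, aromatic hydrocarbons through the aryl hydrocarbon receptor, and stress kinases through ATF4 or through the AP-1 factors of the FOS and JUN families. Jurkat cells carry an active TAL1 oncogene, depend on MYC and lack functional p53, and they express the T-cell receptor but little of the epithelial programme of DLD-1.

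Of 14 measured T-cell marker genes, 13 were detected on all 18 Jurkat arrays, among them CD3D, CD3E, CD3G, CD247, CD2 and LCK. Summed over the list, the T-cell markers lay between 13.85 and 14.32 on the log2 scale with CSE and between 13.95 and 14.50 in Jurkat controls, against 8.25 to 8.58 in DLD-1 controls. Of 13 measured intestinal epithelium markers none was detected on all 18 Jurkat arrays. Their sum lay between 8.45 and 9.02 with CSE and between 8.35 and 9.57 in Jurkat controls, against 15.11 to 15.32 in DLD-1 controls. The array named Jurkat control replicate 7 carries Jurkat in its title and source label and DLD-1 in its cell line field. Its sums, 14.28 for T cells and 9.24 for epithelium, lay inside the range of the Jurkat controls. On it EPCAM stood at 7.41 and KRT19 at 6.54, against means of 5.5 and 4.98 over all Jurkat controls and 13.50 and 12.83 in DLD-1 controls. The epithelial list median, taken as a difference from the control mean, was 0.58 on control replicate 5, 0.14 on replicate 7 and -0.21 to -0.01 on the other controls, and the count of genes called, 3184 over all arrays, was 3194 without replicate 5 and 3122 without replicate 7. Between 16012 and 17829 probes were detected on the CSE arrays and between 16107 and 19131 on the control arrays. Precision depends on how many arrays a group has. The labels give an RNA quality number between 9.3 and 9.6. The 2 measured fibroblast markers summed to 7.91 to 8.72 with CSE and 7.49 to 8.43 in Jurkat controls, and 7 monocyte and B-cell markers to 8.77 to 9.91 and 8.71 to 9.62. The arrays came from 3 slides, numbered 3, 4 and 5 in the labels, which held 3, 1 and 2 CSE arrays and 4 control arrays each.

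The first question was which transcripts differed between exposed and control Jurkat cells. With CSE the largest rises were in inducible chaperones, small nuclear RNAs, GADD45B and RGS2, and the largest falls were in MYC, KLF2 and a set of little-described transcripts. Values are bead intensities after background correction and quantile normalization, on the log2 scale, with 1 probe per gene, and differences are CSE minus control. They were tested with limma across all genes with Benjamini-Hochberg adjustment. In all, 3184 of 16028 genes (19.9%) passed the threshold of an adjusted p under 0.05, 1330 of them (8.3%) higher and 1854 (11.6%) lower with CSE. All 6 CSE arrays lay above all 12 controls for 141 genes (0.88%) and below all of them for 376 genes (2.35%), and of these 138 and 376 passed the threshold. Large changes leaned downward, with 425 rises and 1174 falls of at least 1.5-fold and 94 and 353 of at least 2-fold. The split depended on the scaling. Of the genes that passed, 41.8% were higher here, 55.3% after scaling arrays to the median of the probes detected everywhere and 12.5% after scaling to the median of all probes. The median change of all genes was 0.03, 0.15 and -0.05 on the log2 scale under these scalings, so small changes are relative to such a shift. Within slides 3, 4 and 5 alone, 966, 417 and 481 genes passed. Slide 4 has 1 CSE array, which is assumed to vary like the other groups. All 162 genes that are called and named below kept their direction within each slide, and 92, 61 and 78 of them passed there. Of the 162, 130 were detected on all 18 Jurkat arrays, and for the other 32 part of the difference is against signals not above background.

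**Figure D1:**
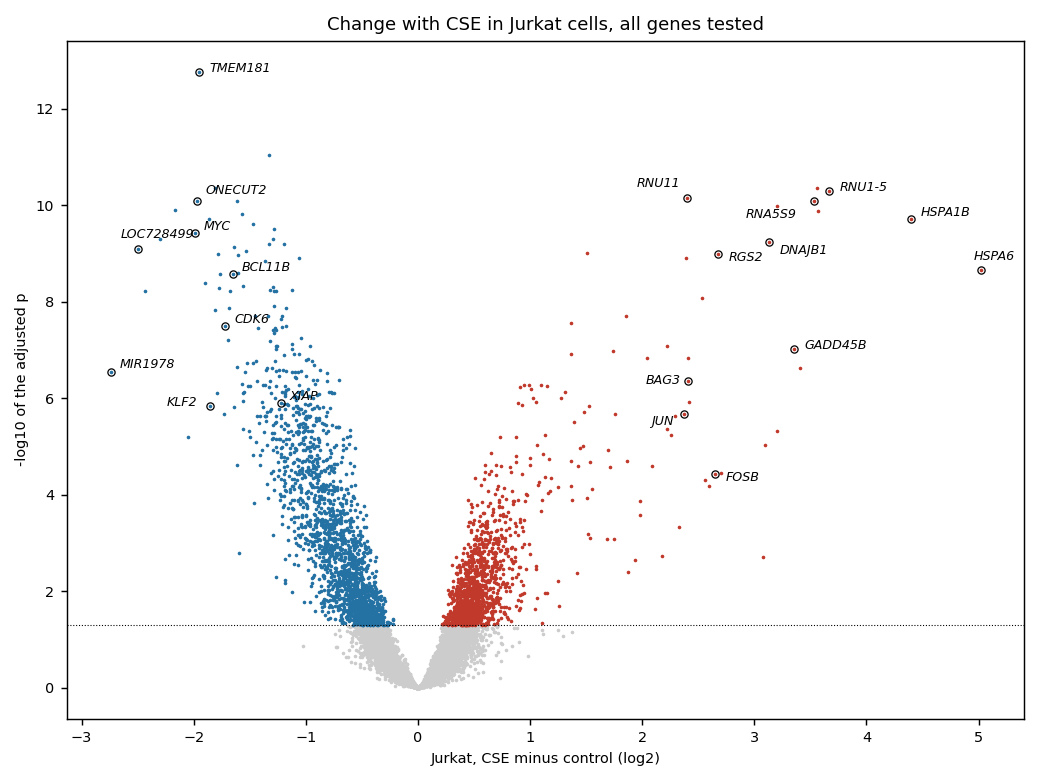
The plot of all 16028 genes shows the change with CSE in Jurkat cells (CSE minus control, log2) on the horizontal axis and the -log10 of the adjusted p on the vertical axis, with genes past the threshold of 0.05 (dotted line) in red where higher and blue where lower. HSPA6 and HSPA1B lie farthest right at 5.02 and 4.40, and MIR1978 farthest left at -2.74.

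Inducible chaperones were among the largest rises, with HSPA6 and HSPA1B ranked 1 and 2, DNAJB1 7 and BAG3 12. HSPA6, an HSP70 that is nearly silent in unstressed cells, HSPA1B, the main inducible HSP70, DNAJB1, its HSP40 partner, and BAG3, which links HSP70 to autophagy of damaged protein, rose by 2.41 to 5.02 on the log2 scale. Heat shock elements are inverted repeats of the letters GAA. HSPA6, HSPA1B and DNAJB1 hold such repeats close to the start, as do HSP90AB1 and SERPINH1, which rose less (0.92 and 1.15). The sequences upstream of these 5 genes are shown because they hold the repeats. They are the 200 bases before the annotated RefSeq start (GRCh38.p14, 5′ to 3′ on the gene's strand), with each match to GAANNTTC or TTCNNGAA in capitals.
HSPA6 promoter: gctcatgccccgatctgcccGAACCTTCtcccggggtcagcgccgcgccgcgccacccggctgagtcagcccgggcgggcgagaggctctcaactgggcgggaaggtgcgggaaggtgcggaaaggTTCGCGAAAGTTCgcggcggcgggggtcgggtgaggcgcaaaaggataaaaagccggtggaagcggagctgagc
HSPA1B promoter: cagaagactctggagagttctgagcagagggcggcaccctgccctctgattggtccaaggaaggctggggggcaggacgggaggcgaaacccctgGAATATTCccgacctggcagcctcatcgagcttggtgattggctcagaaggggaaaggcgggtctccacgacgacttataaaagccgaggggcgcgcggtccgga
DNAJB1 promoter: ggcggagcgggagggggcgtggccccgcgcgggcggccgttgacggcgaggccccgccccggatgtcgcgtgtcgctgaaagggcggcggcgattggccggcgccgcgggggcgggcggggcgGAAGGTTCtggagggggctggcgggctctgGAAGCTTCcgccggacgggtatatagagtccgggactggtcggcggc
HSP90AB1 promoter: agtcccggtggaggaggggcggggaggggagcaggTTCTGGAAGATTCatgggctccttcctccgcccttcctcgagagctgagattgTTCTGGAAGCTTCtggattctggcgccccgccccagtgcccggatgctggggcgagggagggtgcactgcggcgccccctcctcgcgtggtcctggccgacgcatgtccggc
SERPINH1 promoter: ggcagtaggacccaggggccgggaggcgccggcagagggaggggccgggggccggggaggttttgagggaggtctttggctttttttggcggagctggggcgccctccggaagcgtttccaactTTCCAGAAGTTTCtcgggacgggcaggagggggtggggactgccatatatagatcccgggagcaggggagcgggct
The windows are chr1:161524340-161524539 (plus strand) for HSPA6, chr6:31827538-31827737 (plus strand) for HSPA1B, chr19:14518398-14518597 (minus strand) for DNAJB1, chr6:44247743-44247942 (plus strand) for HSP90AB1 and chr11:75562053-75562252 (plus strand) for SERPINH1. In HSPA6, HSP90AB1 and SERPINH1 the repeats overlap to make 3 units in a row, spelled GAANNTTCNNGAA or TTCNNGAANNTTC, while HSPA1B has 1 pair, starting 105 bases before the start, and DNAJB1 has 2 separate pairs, starting 77 and 47 bases before it.

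Of the 17 chaperone genes that rose, 14 had a promoter window in the RefSeq table, and 8 of these (57.1%) held a pair. Of the 48 measured chaperone genes that did not rise, 45 had a window and 9 (20.0%) held a pair, and over all 27305 genes with a window the share was 11.2%. Of all 35116 single windows of this length 9.14% held the pair. A row of 3 units stood in 4 of the 14, in 3 of the 45 and in 0.443% of all genes. A gene with several starts was counted if any of its windows held the letters. The letters are a description of the windows and not a measure of binding. For DNAJB1, HSP90AB1 and SERPINH1, which have several annotated starts, the window shown is the one that held the letters, and the windows of BAG3 and HSPH1 held no pair.

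HSPA6 had log2 intensities of 7.40, 10.34 and 12.99 with CSE (lowest, median and highest array), against 4.55, 4.95 and 6.75 in controls. All 6 exposed arrays lay above all 12 controls, but they spread widely, from 7.40 on CSE replicate 3 to 12.99 on replicate 5, and only 5 of the 12 controls had a detected signal. The change was 5.02 (SE 0.51, adjusted p = 2.2e-09), and a further HSPA6 probe gave 2.66. Within slides 3, 4 and 5 it was 3.88, 6.05 and 6.0. HSPA1B stood at 10.47, 12.01 and 13.30 with CSE and 6.16, 7.24 and 9.41 in controls, a 21.1-fold rise (adjusted p = 1.9e-10). These groups do not overlap either, and here the controls spanned a wider range than the exposed arrays. DNAJB1 was measured at 10.48, 11.68 and 13.18 with CSE and 7.88, 8.56 and 9.69 in controls, a rise of 3.13 (SE 0.30, adjusted p = 5.6e-10). For BAG3 the values were 7.70, 8.82 and 11.57 with CSE and 6.21, 6.97 and 7.36 in controls (change 2.41, SE 0.32, adjusted p = 4.4e-07), with CSE replicate 5 the highest array for each of these 4 genes and replicate 3 the lowest.

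**Figure D2:**
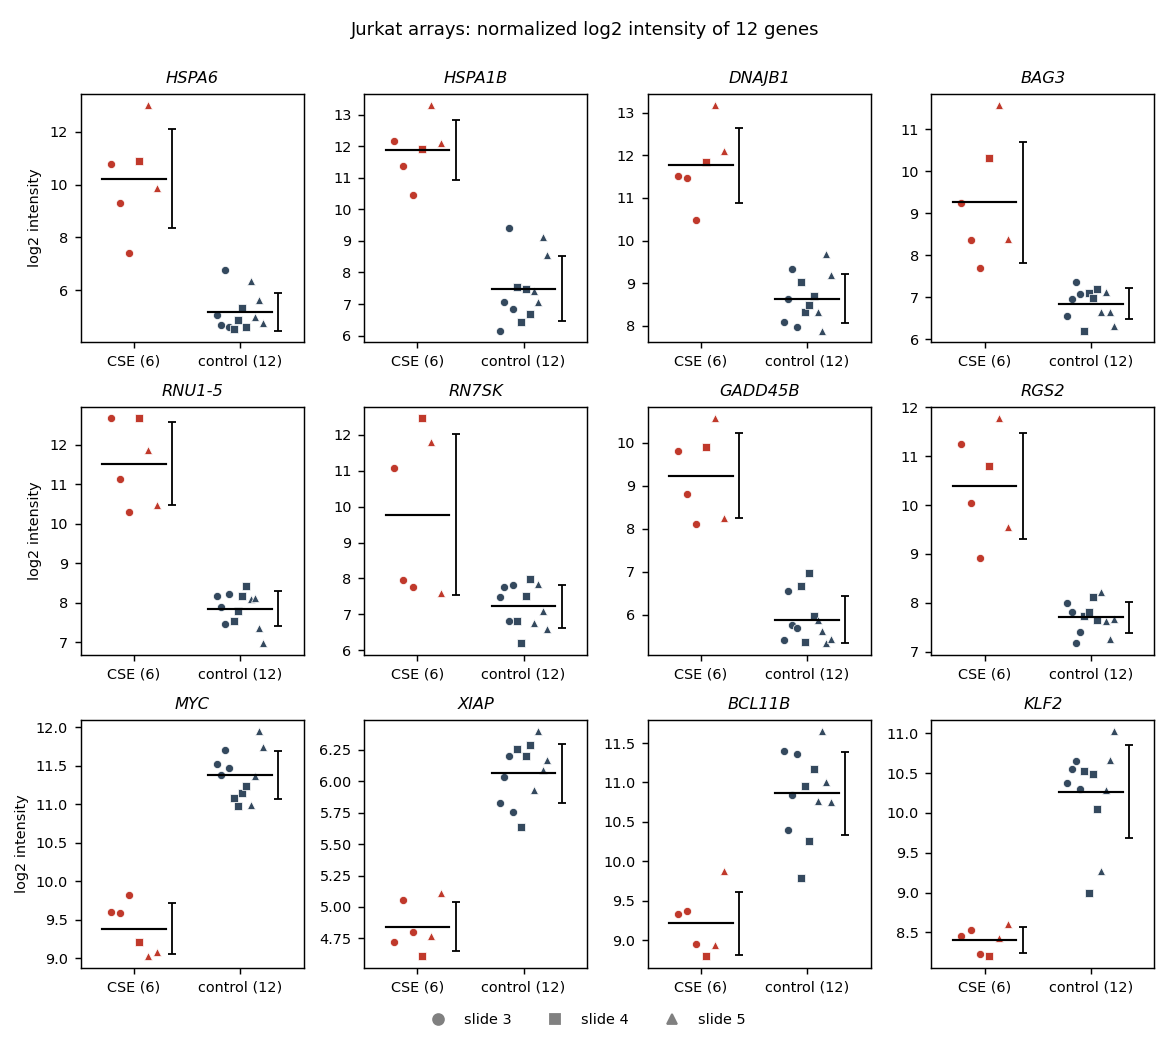
Points show the normalized log2 intensity of 12 genes on each Jurkat array, CSE (6 arrays, red) left of control (12 arrays, dark), with the slide as the symbol, the mean as a line and the SD as a bar. HSPA6 ranges from 7.40 to 12.99 with CSE, and the exposed RN7SK arrays fall into a high and a low set while MYC, XIAP, BCL11B and KLF2 lie lower with CSE.

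Only some chaperone genes passed the threshold. Among 12 HSP70 and HSP110 genes, HSPA6, HSPA1B and HSPH1, the stress-inducible HSP110 (1.52, adjusted p = 0.00064), rose and none fell, with a list median of 0.21 against 0.03 for all genes. All 12 changes lay above 0, against 8698 of 16028 over all genes. The HSPA7 entry, a pseudogene whose sequence is close enough to HSPA6 for shared signal, gave 3.20. HSPA8, the constitutive HSP70, stood at 12.68, 12.81 and 13.58 with CSE and 11.15, 12.41 and 13.98 in controls and did not pass (0.53, adjusted p = 0.29). A further HSPA8 probe gave 0.65 and did not pass. The highest HSPA8 arrays were control replicates 3, 11 and 12 (13.98, 13.89 and 13.84). On the same controls HSPH1 stood at 11.18, 11.14 and 11.24, above CSE replicates 2, 3 and 6. The probe assigned to HSPA1A was detected on 1 of 6 CSE arrays and no control array, with a change of 0.19 that did not pass. HSPA1A and HSPA1B are nearly identical, so the inducible HSP70 pair is read here through the HSPA1B probe. Among 17 DNAJ genes 5 rose and none fell (median 0.04), led by DNAJB1 and DNAJB4 (1.51, adjusted p = 0.00012), a further HSP40. The count was 2 without CSE replicate 5. HSPA1A and HSPA8 are named after their values were seen.

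HSP90 and its helpers moved less. Of 15 genes 5 rose and none fell, with a median of 0.41. STUB1, a ubiquitin ligase that works with HSP70 and HSP90, stood at 9.58, 9.68 and 9.77 with CSE and 8.86, 9.25 and 9.67 in controls (0.43, SE 0.12, adjusted p = 0.0097), and HSP90AB1, the constitutive HSP90, at 11.41, 12.17 and 12.79 with CSE and 10.28, 11.18 and 12.34 in controls (0.92, SE 0.28, adjusted p = 0.016). Both pairs of groups overlap, and a further STUB1 probe gave 0.20 and did not pass. HSP90AA1, the inducible HSP90 (named after its values were seen), gave 0.23 and did not pass (adjusted p = 0.24). The HSP90 count fell to 1 without CSE replicate 4, and the HSP90AB1 call was lost without CSE replicate 4 (0.79, adjusted p = 0.06) or 5 (0.81, adjusted p = 0.056).

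Of 13 HSF, BAG, small and mitochondrial chaperone genes 4 rose and 1 fell, with 2 rises without CSE replicate 5. BAG6, which guards exposed hydrophobic segments, rose by 0.56 (adjusted p = 0.00064) with all exposed arrays above the controls, whereas its relative BAG5 fell by 0.60 (adjusted p = 0.003). SERPINH1, the collagen chaperone HSP47 of the endoplasmic reticulum (ER), rose by 1.15 (adjusted p = 0.011), a call lost without CSE replicate 5 (0.75, adjusted p = 0.087). None of 8 subunits of the TRiC chaperonin, which folds actin and tubulin, passed in limma (1 had an unadjusted p under 0.05, and the list median was 0.11). Within slides 3, 4 and 5 the HSP70 list median was 0.25, 0.67 and 0.10 and the HSP90 median 0.39, 0.49 and 0.29. Under scaling over all probes 2 DNAJ genes rose and 3 fell, 1 HSP90 gene rose, and the DNAJ median was -0.03.

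Genes of the integrated stress response rose beside the chaperones. In this pathway, kinases phosphorylate eIF2, most translation slows, and the transcription factor ATF4 is made and drives amino acid supply. Of 32 genes 10 rose and 2 fell, and the list median was 0.53. Taken per array as a difference from the control mean, the list median was 0.40 to 0.57 with CSE. It was -0.61, -0.61 and -0.55 on control replicates 3, 11 and 12 and -0.01 to 0.41 on the other controls. Part of the list's rise thus rests on those low controls, which were also the lowest for ATF4 (11.71, 11.70 and 12.20). The count of rises was 17 after scaling to the median of probes detected everywhere. ATF4 mRNA stood at 13.18, 13.26 and 13.41 with CSE and 11.70, 12.81 and 13.17 in controls, so the exposed arrays were tightly grouped just above the highest control (0.64, SE 0.16, adjusted p = 0.0038). DDIT3, the pro-death factor CHOP, had 7.81, 9.12 and 9.92 with CSE and 5.11, 7.47 and 8.39 in controls (1.87, SE 0.48, adjusted p = 0.004). PPP1R15A, which directs a phosphatase back to eIF2, gave 9.37, 10.44 and 12.14 with CSE and 7.27, 8.57 and 9.75 in controls (1.98, adjusted p = 0.00027). In both genes only CSE replicate 3 lay below the highest control. SLC3A2, the shared chain of several amino acid transporters, rose by 0.73 (adjusted p = 0.00026) without overlap.

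The 2 falls of this list lay upstream of ATF4, in EIF2AK4 (-0.72, adjusted p = 0.00064), the eIF2 kinase GCN2, and in EIF2S1 (-0.49, adjusted p = 0.016), the phosphorylated subunit of eIF2 itself. Within slides 3, 4 and 5 the list median was 0.47, 0.31 and 0.73. Of 16 aminoacyl-tRNA synthetases, many of them ATF4 targets, 3 rose and 1 fell (median 0.14). YARS1 rose by 0.62, and its lowest arrays were control replicates 3, 11 and 12 (10.04, 9.89 and 10.35). The 2 subunits of phenylalanyl-tRNA synthetase went opposite ways, FARSA by 0.53 (adjusted p = 0.014) and FARSB by -0.90 (adjusted p = 8.5e-07). Of 21 genes of the ER unfolded protein response 1 rose (0 without CSE replicate 5) and 3 fell, with a median of -0.01. The falls were in CANX (-0.66), the lectin chaperone calnexin, ERO1A (-0.43), an oxidase for disulfide bonds, and SYVN1 (-0.56), a ubiquitin ligase of ER-associated degradation.

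Immediate early genes and their feedback regulators followed. Of 28 AP-1 and immediate early transcription factor genes 10 rose and 3 fell (median 0.34). JUN, an AP-1 subunit, had 8.61, 9.21 and 10.07 with CSE and 5.76, 7.23 and 7.51 in controls (2.37, SE 0.34, adjusted p = 2.2e-06). FOSB, its partner, had 8.31, 9.01 and 10.38 with CSE and 4.53, 6.82 and 8.05 in controls (2.65, SE 0.46, adjusted p = 3.7e-05). All exposed arrays of both genes lay above all controls. Control replicates 3, 11 and 12 were the lowest, at 5.98, 5.76 and 5.77 for JUN and 4.56, 4.53 and 4.62 for FOSB. The list median, as a difference from the control mean, was -0.27, -0.29 and -0.64 on these controls. It was -0.09 to 0.54 on the other controls and 0.03 to 0.55 with CSE. Part of the list's rise thus rests on those low controls. FOS, named after its values were seen, rose by 3.07 (adjusted p = 0.0019), but its controls alone ranged from 4.42 to 9.59 and overlapped the exposed arrays (8.75, 10.36 and 11.09). ATF3, a stress-induced repressor, rose by 2.18 (adjusted p = 0.0019).

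The mRNA decay factors of this list went opposite ways. ZFP36L1 rose by 0.76 (adjusted p = 0.00025) and ZFP36L2 fell by 1.12 (adjusted p = 2.8e-07) with no overlap between groups. KLF2, a factor that keeps T cells quiescent and in circulation, stood at 8.20, 8.45 and 8.60 with CSE and 9.0, 10.44 and 11.03 in controls. It fell by 1.86 (SE 0.26, adjusted p = 1.4e-06), all exposed arrays lying within a narrow band below the lowest control. IER5, an immediate early gene tied to the heat shock response, rose by 0.88 (adjusted p = 0.00045). The list median within slides 3, 4 and 5 was 0.23, 0.07 and 1.08.

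RGS2, which switches off G protein signalling, had 8.92, 10.41 and 11.78 with CSE and 7.17, 7.70 and 8.22 in controls (2.68, SE 0.26, adjusted p = 1.0e-09), and every exposed array lay above every control. DUSP1, a phosphatase that turns off stress MAP kinases, had 8.06, 8.58 and 9.45 with CSE and 6.27, 7.04 and 7.55 in controls (1.69, adjusted p = 0.00082), again without overlap. It was 1 of 2 higher among 9 dual-specificity phosphatases (1 without CSE replicate 5), with 1 lower (0 without CSE replicate 1). ID2, a helix-loop-helix protein that blocks E proteins in T cells, had 6.93, 9.17 and 10.78 with CSE and 4.87, 5.37 and 8.39 in controls (3.10, SE 0.49, adjusted p = 9.5e-06). Its groups overlap, since 2 controls, replicates 2 and 7, stood at 7.97 and 8.39.

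MYC was among the largest falls. This growth-promoting transcription factor had 9.03, 9.40 and 9.82 with CSE and 10.98, 11.37 and 11.95 in controls, a fall of 1.99 (SE 0.19, adjusted p = 3.8e-10), and a further MYC probe gave -2.09. The groups lie more than 1 log2 unit apart, and the fall within slides 3, 4 and 5 was -1.85, -1.90 and -2.46. In bulk RNA such a fall cannot tell fewer expressing cells from less RNA per cell. Of 11 genes of the MYC network 3 fell and none rose, MYC with MGA (-0.81, adjusted p = 0.00019) and MNT (-0.78, adjusted p = 0.00052), both antagonists of MYC at its sites. A further MGA probe, detected on 3 of 18 arrays, gave 0.05. Of 34 ribosome biogenesis factors, a class of MYC targets, 5 fell and none rose, but the median was -0.06 and the count was 1 without CSE replicate 1. TSR1, needed for small subunit maturation, fell by 0.74 (adjusted p = 0.0025).

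A few cell cycle genes fell, without a shift of the lists. CDK6, the G1 kinase that dominates in T-cell leukaemia, had 8.63, 9.36 and 9.70 with CSE and 10.59, 11.11 and 11.45 in controls (-1.72, SE 0.20, adjusted p = 3.2e-08). No exposed array reached the controls. Among 42 G1/S and replication genes 4 fell (9.52%, below the 11.6% of all genes) and none rose (median -0.09). ORC6, an origin recognition subunit, was at -0.61 (adjusted p = 2.2e-05) and the G1 cyclin gene CCND2 at -0.50 (adjusted p = 0.0023). A further probe of ORC6 gave 0.27 and a further probe of CCND2 -0.15, neither past the threshold. Among 32 G2/M genes 6 fell (18.8%) and none rose (median 0.02), led by the kinetochore gene CENPF (-0.78, adjusted p = 0.00044), and the count was 2 without CSE replicate 5. The G2/M median was 0.20, 0.16 and -0.48 within slides 3, 4 and 5.

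Some growth arrest genes rose. Of 26 GADD45 and p53 target genes 5 rose and 1 fell, and the median was 0.13, or -0.05 with scaling over all probes. GADD45B, which activates stress kinases, had 8.11, 9.30 and 10.58 with CSE and 5.34, 5.73 and 6.97 in controls, a 10.2-fold rise (SE 0.41 on the log2 scale, adjusted p = 9.6e-08) with no overlap. GADD45A rose by 1.05 (adjusted p = 0.0035) and PPM1D, a phosphatase that ends DNA damage signalling, by 0.86 (adjusted p = 0.00014). CDKN1A, the kinase inhibitor p21, had 7.62, 8.69 and 10.39 with CSE and 4.87, 6.62 and 9.18 in controls (1.93, adjusted p = 0.0023). Its controls span a wider range than its exposed arrays.

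Several anti-apoptotic genes fell. BCL2L1, whose protein Bcl-XL is named in the series title, had 10.86, 11.20 and 11.80 with CSE and 10.85, 11.62 and 11.92 in controls and did not pass (-0.28, SE 0.16, adjusted p = 0.22), and a further probe gave -0.07. The groups overlap almost fully. Of the 10 anti-apoptotic BCL2 family and IAP genes measured, 4 fell and 0 rose, with a median of -0.28 that stayed below 0 in all settings tried (-0.52 to -0.12). XIAP, a direct caspase inhibitor, had 4.61, 4.78 and 5.11 with CSE and 5.63, 6.13 and 6.40 in controls (-1.22, SE 0.17, adjusted p = 1.3e-06), and it was detected on 1 of 6 exposed arrays and on all controls. BCL2 had 5.23, 6.38 and 7.0 with CSE and 6.61, 7.43 and 8.21 in controls (-1.10, SE 0.18, adjusted p = 2.1e-05). Here the groups overlap, 1 further probe gave -1.28 and another, detected on 8 of 18 arrays, 0.45. BIRC3, an IAP of the NF-kB pathway, fell by 1.0 (adjusted p = 0.00026).

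Of 27 pro-apoptotic, apoptosome and caspase genes 3 rose and 3 fell (median 0.12). DIABLO, the mitochondrial antagonist of IAPs, rose by 0.51 (adjusted p = 4.4e-05) with all exposed arrays above the controls, and its 2 further probes gave 0.56 and 0.74. HRK, a BH3-only protein, rose by 0.55 (adjusted p = 0.0091), a call lost when the 18 Jurkat arrays were fitted alone (adjusted p = 0.061). APAF1, the core of the apoptosome, fell by 0.82 (adjusted p = 0.0031) and CASP2 by 0.60 (adjusted p = 0.0019). A further APAF1 probe, detected on 7 of 18 arrays, gave 0.27 and did not pass. The list thus holds members on both sides of 0, and its share of calls (11.1% higher and 11.1% lower) lies near that of all genes.

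Neither of the receptor's invariant chains named here passed, while several T-lineage regulators fell. CD3D had 13.02, 13.27 and 13.47 with CSE and 13.10, 13.32 and 13.59 in controls (-0.09, SE 0.17, adjusted p = 0.8), and CD3E gave 0.28 (adjusted p = 0.1). Of 33 receptor and proximal signalling genes 4 rose (12.1%) and 5 fell (15.2%), against 8.3% and 11.6% of all genes (median -0.05). The count of rises was 2 without CSE replicate 1. THEMIS, an adaptor of thymocyte selection, fell by 0.86 (adjusted p = 3.5e-05). SLA, which lowers receptor levels, fell by 0.88 (adjusted p = 0.002) and the phosphatase CD45, PTPRC, by 0.54 (adjusted p = 0.0027). CD5, an inhibitory co-receptor, rose by 0.60 (adjusted p = 0.00088) and the adaptor GRAP2 by 0.48 (adjusted p = 0.0023).

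Of 32 T-lineage and T-cell leukaemia transcription factor genes 7 fell and 1 rose, a share of 21.9% lower against 11.6% of all genes, with a median of -0.23. BCL11B, which holds cells to the T lineage, had 8.80, 9.14 and 9.88 with CSE and 9.79, 10.90 and 11.65 in controls. It fell by 1.65 (SE 0.17, adjusted p = 2.7e-09), and only CSE replicate 6, at 9.88, reached the lowest control. RUNX1 had 7.60, 8.35 and 8.89 with CSE and 9.06, 10.08 and 10.55 in controls (-1.61, SE 0.27, adjusted p = 2.4e-05) without overlap, although a further RUNX1 probe, detected on 9 of 18 arrays, gave 0.05. TAL1, the oncogene of this line, had 6.24, 6.69 and 7.59 with CSE and 6.82, 7.80 and 8.69 in controls (-1.10, SE 0.18, adjusted p = 1.3e-05). RUNX1, TAL1 and GATA3 (-0.95, adjusted p = 0.0011) are known to bind and activate each other's enhancers in this leukaemia, and IKZF2, an Ikaros family factor, fell as well (-0.74). PTCRA, the pre-receptor alpha chain, was the 1 gene of this list that rose (0.60, adjusted p = 2.4e-05). The list median was -0.29, -0.45 and -0.13 within slides 3, 4 and 5.

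Genes of activation and movement fell in part. Of 14 activation markers, cytokines and NFAT genes 3 fell (21.4%, against 11.6% of all genes) and none rose (median -0.04). CD69, the early activation marker that also holds cells in tissue, had 6.90, 8.73 and 9.81 with CSE and 7.98, 10.60 and 11.28 in controls (-1.59, adjusted p = 0.0016), and both groups spread over more than 2 log2 units. IL10, an immunosuppressive cytokine, had 9.59, 10.02 and 10.85 with CSE and 10.50, 10.97 and 11.79 in controls (-0.99, SE 0.19, adjusted p = 0.00017). NFATC2IP gave -1.68 (adjusted p = 6.0e-09), but none of its 5 further probes passed. Of 19 trafficking and surface receptor genes 3 rose (15.8%, against 8.3% of all genes) and 4 fell (21.1%, against 11.6%), with a median of 0.03. None of these rises passed without CSE replicate 1. ITGA4, the alpha4 integrin of gut homing, had 7.55, 7.84 and 8.19 with CSE and 8.40, 8.99 and 9.40 in controls (-1.06, SE 0.15, adjusted p = 1.7e-06) without overlap. CXCR4, the receptor for CXCL12, had 9.45, 10.43 and 10.99 with CSE and 10.89, 11.18 and 11.59 in controls (-0.89, adjusted p = 1.7e-05), and CSE replicates 2 and 6 lay inside the control range. S1PR1, the lymph node egress receptor and a KLF2 target, fell by 0.48 (adjusted p = 0.0087), with 3 of 6 exposed and 10 of 12 control arrays detected. Its call was lost when the 18 Jurkat arrays were fitted alone (adjusted p = 0.054).

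Of 25 NF-kB and inflammatory genes 2 rose (8%) and 3 fell (12%), near the 8.3% and 11.6% of all genes. The count of falls was 1 without CSE replicate 3. NFKBIE, an inhibitor of NF-kB, rose by 1.44 (adjusted p = 1.1e-05). Of 34 interferon response and MHC class I genes 8 rose and 1 fell, with a median of 0.18, and the count of rises was 4 without CSE replicate 1 and 1 with scaling over all probes. ULBP1, a stress ligand for the NKG2D receptor of killer cells, had 8.19, 8.33 and 9.37 with CSE and 5.66, 6.98 and 8.34 in controls (1.53, SE 0.33, adjusted p = 0.00077). CSE replicates 2, 3 and 6 stood just below the highest control. HLA-E rose by 0.54, IFITM1 by 0.53 and IRF3 by 0.56, and the peptide transporter gene TAP2 fell by 0.48, with adjusted p between 0.00086 and 0.0026. Of 30 genes at inflammatory bowel disease risk loci 3 rose and 7 fell (median -0.09). This list holds HSPA6, and its falls were led by ZMIZ1 (-1.57, adjusted p = 5.1e-07), BACH2 (-1.07, adjusted p = 3.7e-05), a repressor in T cells, and the chemokine receptor gene CCR6 (-0.48, adjusted p = 0.00017). Further BACH2 probes gave -0.68, which passed, and 0.20, which did not. For ZMIZ1 and CCR6 all exposed arrays lay below all controls, and the count of rises was 1 without CSE replicate 1.

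Many small non-coding RNAs rose. U RNAs guide splicing, RNase P and RNase MRP trim tRNA and rRNA precursors, 7SK holds the elongation kinase P-TEFb inactive, and small nucleolar RNAs (snoRNAs) guide rRNA modification. Most of them end without a poly(A) tail. All 14 spliceosomal U RNA entries rose (median 1.47), a list drawn up with these rises known, and several entries are near-identical copies of U1. RNU1-5 had 10.29, 11.50 and 12.67 with CSE and 6.97, 8.0 and 8.42 in controls (3.67, SE 0.31, adjusted p = 5.0e-11). RNU11, of the minor spliceosome, had 7.76, 8.10 and 9.54 with CSE and 5.59, 5.94 and 6.82 in controls (2.40, SE 0.21, adjusted p = 7.0e-11). RNU4-1, detected on 1 of 12 controls, rose by 1.51. Exposed and control arrays were far apart for each of the 3 genes.

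Of 13 RNase P, RNase MRP, 7SK, 5S, Y and vault RNAs 7 rose and 2 fell. The 5S rRNA entry RNA5S9 had 10.58, 12.44 and 13.52 with CSE and 8.0, 8.73 and 9.21 in controls (3.53, SE 0.31, adjusted p = 8.3e-11), and RPPH1, the RNase P RNA, had 6.80, 8.66 and 9.69 with CSE and 5.42, 5.91 and 6.48 in controls (2.53, SE 0.27, adjusted p = 8.2e-09). RMRP, the RNase MRP RNA, rose by 2.22, VTRNA1-1, a vault RNA, by 1.36 and RNY1, a Y RNA, by 1.52. RMRP was detected on 1 and VTRNA1-1 on 3 of 12 controls. RNY3, another Y RNA, fell by 0.53 (adjusted p = 0.01). RN7SK, named after its values were seen, rose by 2.56 (SE 0.45, adjusted p = 5.0e-05), with 7.60, 9.52 and 12.47 with CSE and 6.19, 7.28 and 7.99 in controls.

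The exposed arrays stood apart from each other for these RNAs. CSE replicates 1, 4 and 5 had RN7SK levels of 11.08, 12.47 and 11.79, whereas replicates 2, 3 and 6 had 7.97, 7.77 and 7.60, all within the control range, which ended at 7.99. For RMRP the same 3 arrays had 8.26, 8.19 and 8.07, against 5.83, 5.33 and 5.65 on the other 3, all above the highest control at 4.96. H2AC17, a replication-dependent histone gene, had 7.73, 7.96 and 7.19, against 5.67, 5.77 and 5.73. The high arrays came from all 3 slides, 1 from each. They were also the arrays with the highest HSPA6 values (10.79, 10.90 and 12.99) and the highest GADD45B values, so the sizes of these changes differed between exposed samples together.

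**Figure D3:**
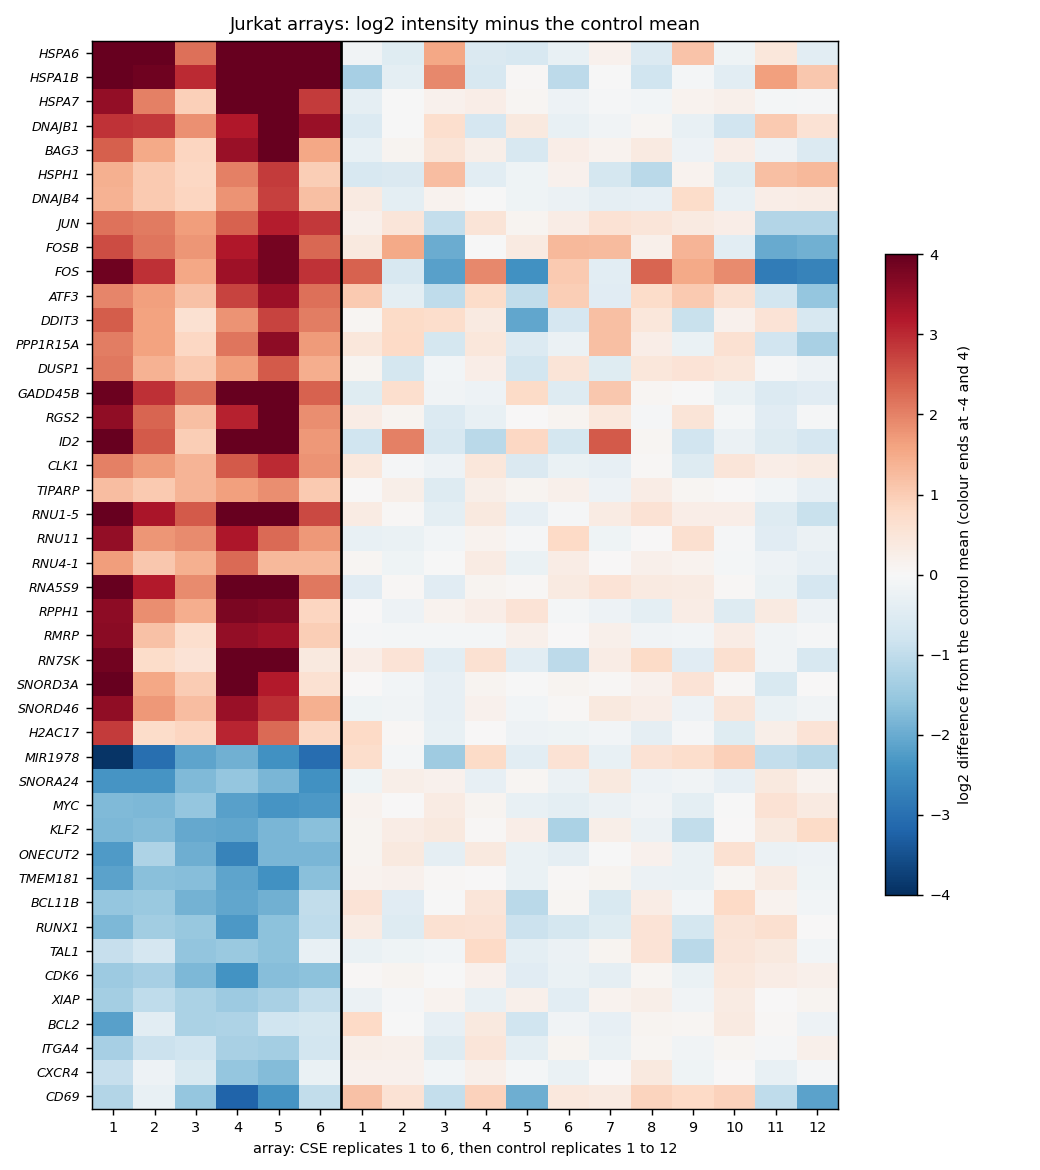
The heat map gives, for 44 genes (rows), the log2 intensity of each Jurkat array minus the mean of the 12 controls, with CSE replicates 1 to 6 left of the line and control replicates 1 to 12 right of it (colours end at -4 and 4). Replicates 1, 4 and 5 are the darkest red columns for the small RNAs, and FOS and ID2 vary among controls as well.

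The snoRNAs changed in both directions, with rises well above the share of all genes and falls close to it. Of 142 snoRNA and Cajal body RNA entries 36 rose (25.4%, against 8.3% of all genes) and 18 fell (12.7%, against 11.6%). The median was 0.08. SNORD3A, the U3 RNA that starts rRNA processing, had 7.61, 9.36 and 11.17 with CSE and 6.41, 7.04 and 7.56 in controls (2.42, SE 0.34, adjusted p = 1.2e-06). Its near-identical copy SNORD3D gave 2.41, SNORD46 2.39, SNORD56 1.74, SNORD55 1.37 and SNORD25 1.28. On the falling side, SNORA24, which guides pseudouridylation, had 5.08, 5.41 and 5.97 with CSE and 7.16, 7.47 and 7.91 in controls (-2.05, SE 0.32, adjusted p = 6.3e-06) without overlap. SNORA25 fell by 1.56, SNORD36C by 1.37, SCARNA9 by 1.36, SNORA33 by 1.31 and SNORA73A by 1.12, the last detected on 1 of 6 exposed arrays. SNORD46 was detected on 6 and SNORD55 on 5 of 12 controls. By name, 27 of 74 SNORD entries rose (36.5%) and 8 fell (10.8%). For SNORA 9 of 54 entries rose and 9 fell (16.7% each), and of 14 SCARNA entries none rose and 1 fell (7.14%). Most snoRNAs lie in introns of host genes, and without strand or length of the hybridised molecule a probe cannot tell a snoRNA from a host precursor.

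Of 31 histone cluster genes, whose main transcripts also lack a poly(A) tail, 8 rose and none fell (median 0.26), with 3 rises without CSE replicate 5 or with scaling over all probes and 13 with scaling to the median of probes detected everywhere. H2AC17 had the largest rise of the 8, 1.76 (SE 0.25, adjusted p = 2.2e-06), with a signal detected on 3 of 12 controls, and H3C13 rose by 0.94 (adjusted p = 0.0076). Of 61 genes for SR, hnRNP and snRNP splicing proteins, in contrast, 3 rose and 9 fell (median 0.01), so the protein partners of the U RNAs showed no rise as a list.

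The CLK kinases of that list went both ways. CLK1, which phosphorylates SR proteins and is itself controlled by splicing, had 10.03, 10.58 and 11.67 with CSE and 8.10, 8.68 and 9.15 in controls (2.05, SE 0.25, adjusted p = 1.5e-07), with further probes at 2.02 and 2.93. No control reached the exposed arrays. CLK3 rose by 0.65 (adjusted p = 0.0043) and CLK2 fell by 1.10 (adjusted p = 0.00029), with a further CLK2 probe at -0.64. The falls included PNISR (-0.86), HNRNPU (-1.10), HNRNPR (-0.65) and HNRNPA0 (-0.56), with adjusted p between 0.00012 and 0.0064. Among 25 genes of RNA polymerase II pausing and P-TEFb control 6 rose and 2 fell. The falls were in scaffolds of the super elongation complex, which carries P-TEFb. AFF4 had 6.61, 7.29 and 7.72 with CSE and 8.08, 8.46 and 8.82 in controls (-1.27, SE 0.16, adjusted p = 1.7e-07) without overlap, and AFF1 fell by 0.93 (adjusted p = 7.0e-05). CCNL1, a cyclin of splicing kinases, rose by 0.94 (adjusted p = 0.00034) and the bromodomain gene BRD2 by 0.52 (adjusted p = 0.0049).

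Detoxification genes differed between Jurkat and DLD-1. HMOX1, the inducible haem oxygenase and a classic NRF2 target, had 4.72, 5.16 and 6.48 with CSE and 4.54, 4.82 and 5.71 in controls and did not pass in Jurkat (0.40, SE 0.29, adjusted p = 0.38), while DLD-1 gave 4.37. The change in Jurkat minus that in DLD-1 was -3.97 (SE 0.41, adjusted p = 4.5e-08). CYP1A1, the hydrocarbon-oxidising P450 and main target of the aryl hydrocarbon receptor, was detected on no Jurkat array, so it has only a bound there, and the difference in fitted change was -4.35 (adjusted p = 5.6e-11). Over all genes this difference passed for 1041 of 16028 (6.49%), 379 with the Jurkat change higher and 662 with it lower, and for 620 without CSE replicate 1.

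A target of the receptor rose in Jurkat. TIPARP, a receptor target that feeds back on the receptor, had 8.89, 9.13 and 9.70 with CSE and 7.32, 7.89 and 8.14 in controls (1.36, SE 0.25, adjusted p = 6.6e-05), all exposed arrays lying above the controls, and its change did not differ detectably from DLD-1 (difference -1.04, adjusted p = 0.063). AHR, the receptor gene, fell by 0.94 (SE 0.16, adjusted p = 2.0e-05), with 9.34, 9.52 and 10.10 with CSE and 10.08, 10.46 and 11.12 in controls, and a further AHR probe, detected on 7 of 18 arrays, gave -0.13 and did not pass. Of 36 NRF2 and glutathione genes 3 rose (8.33%, against 8.3% of all genes) and 1 was lower (0 without CSE replicate 1), and for 8 the change was lower than in DLD-1. The rises were small, BLVRB, a biliverdin reductase, at 0.57 (adjusted p = 0.00014), GSS, glutathione synthetase, at 0.56 (adjusted p = 0.01) and FTL, a ferritin chain, at 0.34 (adjusted p = 0.013). TXNIP, an inhibitor of thioredoxin, fell by 0.88 (adjusted p = 0.0057), less than in DLD-1 (difference 1.51, adjusted p = 0.0052), and was the 1 gene called of 18 in the thioredoxin list. Of 10 metallothionein and zinc transport genes 1 rose and 1 was lower, and each count was 0 without 1 of the exposed arrays (replicates 2 and 1).

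**Figure D4:**
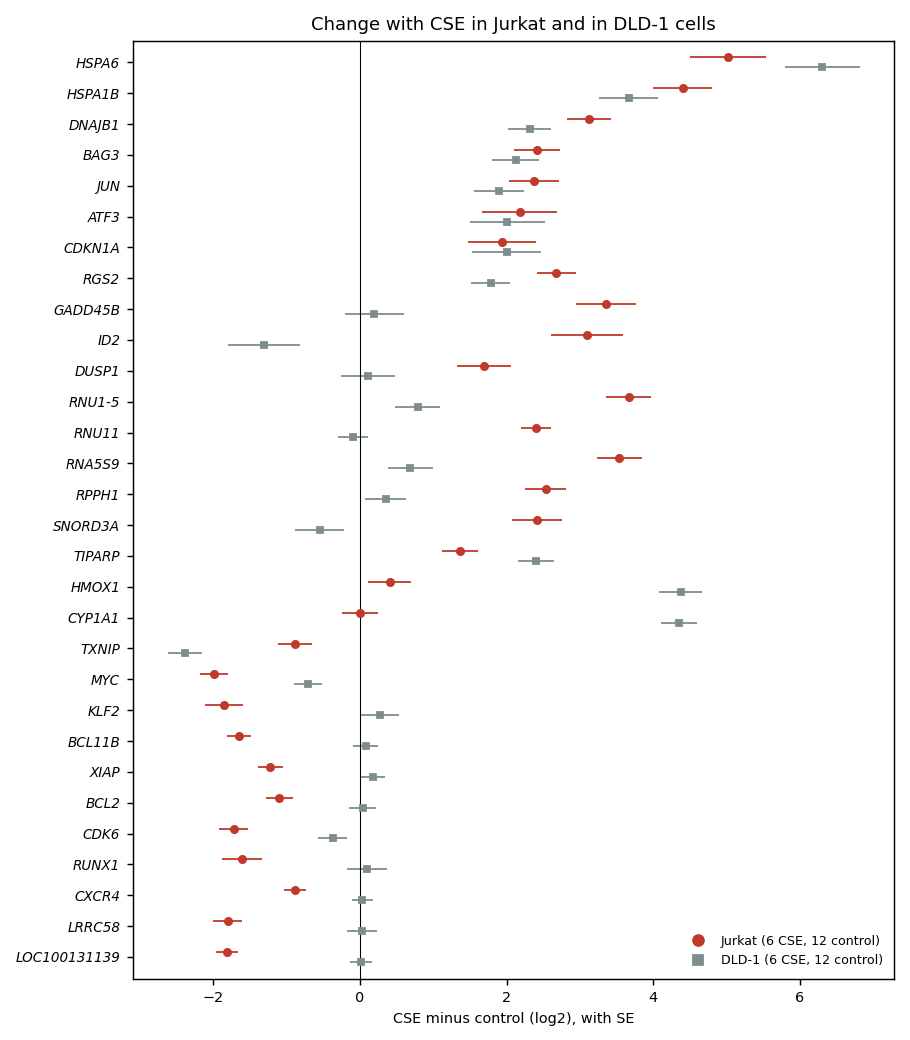
For 30 genes the change with CSE (CSE minus control, log2, with its SE) is drawn for Jurkat (circles, 6 CSE and 12 control arrays) above DLD-1 (squares, 6 and 12 arrays). HSPA6, HSPA1B, DNAJB1, BAG3, JUN and ATF3 lie to the right in both lines, GADD45B, ID2 and the small RNAs lie to the right in Jurkat with the difference called, and HMOX1 and CYP1A1 lie to the right in DLD-1.

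Of the Jurkat calls, 240 were also called in the same direction in DLD-1 and 13 in the opposite direction, where 691 genes (4.31%) passed in all, 297 (1.85%) higher and 394 (2.46%) lower. The 240 make up 7.54% of the Jurkat calls and 34.7% of the DLD-1 calls. Among heat shock and AP-1 rises the difference between lines did not pass for HSPA1B, DNAJB1 or JUN, with 0.73 for HSPA1B (SE 0.57, adjusted p = 0.5), 0.82 for DNAJB1 (SE 0.42, adjusted p = 0.27) and 0.47 for JUN (SE 0.48, adjusted p = 0.63), while the HSPA1A probe rose in DLD-1 only and differed (-1.20, adjusted p = 0.0064). The difference also passed for BAG6 (0.68, adjusted p = 0.014), STUB1 (0.56, adjusted p = 0.04) and ZFP36L1 (1.43, adjusted p = 4.5e-05), all higher in Jurkat. The small RNAs did differ. For 13 of the 14 U RNAs and 8 of the 13 RNase P, MRP, 7SK, 5S, Y and vault RNAs the Jurkat change was higher, with 2.50 for RNU11 (SE 0.29, adjusted p = 4.9e-07), 2.18 for RPPH1 (adjusted p = 0.00047) and 2.97 for SNORD3A (adjusted p = 0.00013). GADD45B (3.16, adjusted p = 0.00066) and ID2 (4.40, adjusted p = 0.00011) were also higher in Jurkat than in DLD-1.

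On the falling side the Jurkat change was lower than in DLD-1 for KLF2 (-2.13, adjusted p = 0.00035), BCL11B (-1.73, adjusted p = 2.1e-05), XIAP (-1.40, adjusted p = 0.00034), CDK6 (-1.35, adjusted p = 0.0028) and MYC (-1.28, adjusted p = 0.0026). MYC fell in both lines. Among the 8 genes with the smallest p of the difference were FAM43A and NUAK2, whose probes used here were detected on no Jurkat array. A further NUAK2 probe was detected on 1 Jurkat control. LOC100131139 had 7.93, 8.44 and 8.98 with CSE and 9.82, 10.32 and 10.63 in Jurkat controls (-1.81, adjusted p = 4.4e-11), against 0.01 in DLD-1 (difference -1.83, adjusted p = 4.9e-07).

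Protein turnover lists were near the background. Of 37 proteasome subunits 2 rose, PSMD4 by 0.39 and PSMB8 by 0.49, and PSMD12 fell by 0.67, though 2 further PSMD12 probes did not pass (-0.11 and 0.08). Among the 31 ubiquitin and E2 genes of the list 1 rose and 3 fell. The rise was in UBB, a stress-responsive ubiquitin gene, which had 13.73, 13.98 and 14.21 with CSE and 13.05, 13.56 and 13.83 in controls (0.45, SE 0.10, adjusted p = 0.0011). The E2 enzyme genes UBE2G2 (-0.68) and UBE2K (-0.58) fell. Of 26 autophagy genes 2 rose (1 without CSE replicate 1) and 3 fell, with ULK1, the initiating kinase, at -0.96 (adjusted p = 1.0e-05), ATG14 at -0.78 (adjusted p = 0.00013) and GABARAPL1, an ATG8 protein, at 0.58 (adjusted p = 0.0039).

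Respiratory chain and ribosomal protein genes shifted by small amounts that depend on scaling. Of 60 respiratory chain subunits 11 rose (18.3%) and none fell, 54 had a change above 0 and the median was 0.17. COX6A1 rose by 0.38, ATP5F1E by 0.35 and NDUFS7 by 0.43. The count of rises was 3 without CSE replicate 1, 30 with scaling to the median of probes detected everywhere and 0 with scaling over all probes. Cytosolic ribosomal proteins behaved likewise, with 6 of 83 higher (3 without CSE replicate 3) and 33 and 3 under these scalings, and so did mitochondrial ribosomal proteins, with 8 of 77 higher (4 without CSE replicate 1) and 20 and 1. RPL7L1, a ribosomal protein-like factor, fell by 0.95 (adjusted p = 4.9e-06) and MRPL18 rose by 0.71 (adjusted p = 0.001). MRPL18 is known to have a stress-induced cytosolic form, and it also rose in DLD-1 (0.93).

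Of 30 hypoxia and glycolysis genes 3 rose and none fell (median 0.22), with ADM, a vasodilator peptide gene, at 1.75 (adjusted p = 0.00081) and KDM3A, a histone demethylase, at 0.57 (adjusted p = 0.012). Of 23 cholesterol synthesis genes 1 rose and 2 fell (1 without CSE replicate 1), HSD17B7 by 1.08 (adjusted p = 4.9e-05). The cholesterol list varied between samples more than between groups, since its median ran from -0.45 to 0.93 over the exposed arrays and from -0.57 to 0.88 over the controls. Zinc finger genes named ZNF, mostly KRAB repressors with short-lived mRNA, leaned downward, 72 of 371 lower (19.4%) and 20 higher (5.39%), with a median of -0.05. ZNF264 fell by 1.70 (adjusted p = 6.1e-08), ZNF286C by 1.27 and ZNF674 by 0.82. ZNF493 was detected on 11 of 12 controls and no exposed array and was at least 1.82-fold lower with CSE by this probe (adjusted p = 2.7e-07), but a further probe, detected on 1 of 6 exposed and 8 of 12 control arrays, gave -0.31 and did not pass. ZNF77 (1.10), ZNF57 (0.99) and ZNF408 (0.92) rose, each with all exposed arrays above the controls.

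**Figure D5:**
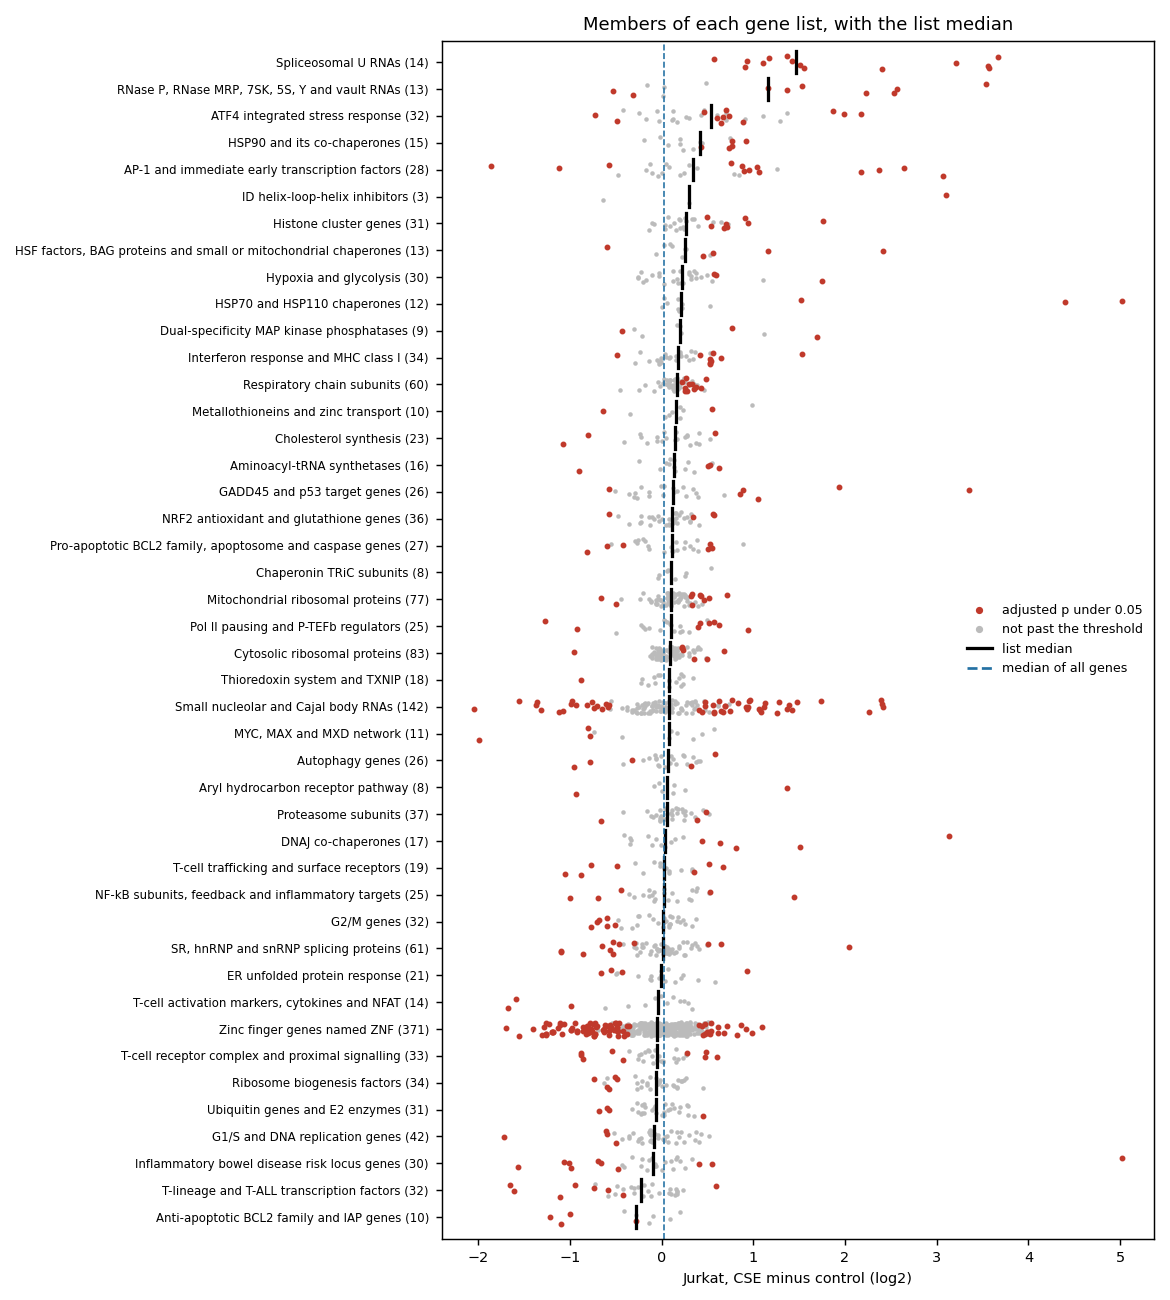
Each point is the change with CSE in Jurkat (CSE minus control, log2) of 1 measured gene of the list named at the left, with the number measured in brackets, red where the adjusted p was under 0.05. Black bars are list medians and the dashed line is the median of all genes, 0.03, and the U RNAs and the RNase P, MRP, 7SK, 5S, Y and vault RNAs have the highest medians and the anti-apoptotic genes the lowest.

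The largest falls were mostly in transcripts outside these lists. MIR1978, an entry listed as a microRNA by the array's design, had 7.90, 9.12 and 9.91 with CSE and 10.42, 12.08 and 12.79 in controls (-2.74, SE 0.35, adjusted p = 2.8e-07). TMEM181, a putative G protein-coupled receptor, had 6.41, 6.91 and 7.14 with CSE and 8.54, 8.86 and 9.14 in controls, and its fall of 1.96 (SE 0.13, adjusted p = 1.7e-13) had the smallest p of all genes named. ONECUT2, a homeobox transcription factor, had 5.22, 6.01 and 6.67 with CSE and 7.55, 7.81 and 8.52 in controls (-1.97, adjusted p = 8.3e-11), and its 2 further probes gave -1.36 and -0.72. Each of these groups lies well clear of the controls. ALG10B, a glucosyltransferase of N-glycan assembly, fell by 1.86, LRRC58 by 1.81 and AKAP11, an anchor for protein kinase A, by 1.79.

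The array entries without a current gene name among the 15 largest falls were LOC728499 (-2.49), LOC100190986 (-2.43), LOC100133840 (-2.30), LOC100134241, LOC728452 and LOC100131139. LOC100134241 and LOC728452 were detected on all 12 controls and no exposed array, and were at least 3.04-fold and 2.77-fold lower with CSE. Further probes bear on such falls. Of the 162 genes called and named, 55 had a further probe. For 33 of these 1 or more passed in the same direction, with another of BCL2 in the opposite direction, and for 22 none passed. Of 353 genes that fell at least 2-fold, 138 had a further probe, and of these 63 had one that fell, 5 had one that rose and 71 had none that passed. Of 94 genes that rose at least 2-fold, 12 had a further probe, which rose for 9. ALG10B had further probes at 0.01 and 0.15 and LRRC58 one at -0.34, none past the threshold, while a further AKAP11 probe fell by 1.38. Over all kept probes 4096 of 22612 passed (18.1%). A probe reads 1 stretch of a transcript, and whether such pairs differ by isoform or by probe was not tested.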

How the data were processed

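Bead intensities and detection p-values of 47323 probes were deposited by the authors for 36 arrays, per the file headers, without normalization; no label or header names the scanner software. A second deposited table holds intensity values that keep each array's ranks and were quantile normalized, and it served as an alternative. Detection p-values move in steps of 1 in 770. Groups came from the source labels, and all 36 arrays entered 1 fit.

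Intensities were background corrected with the detection p-values (neqc of limma 3.58.1 in R 4.3.3, offset 16), quantile normalized and put on the log2 scale. Probes with a detection p under 0.05 on at least 6 arrays were kept (22612), with the brightest kept probe per gene (16028 genes). Names were updated through the RefSeq gene table (10902 genes by symbol, 1848 by an older symbol, 1147 by gene number, and 2131 kept the array's name). Group means were compared by lmFit and eBayes, two-sided, with Benjamini-Hochberg adjustment over all genes. Unless another quantity is named, a value beside an adjusted p is a difference in log2 intensity, CSE minus control, and 3 values in a row are the lowest, median and highest array. Levels of different probes are not comparable.

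Named genes were HSPA6 and BCL2L1, the 15 largest rises and falls without overlap and detected on all arrays of the brighter group (near-identical copies with the same name before the last hyphen, such as the RNU1 entries, ranked once), up to 5 genes of each list by p in each direction, up to 3 where none passed, the 8 smallest p-values of the difference between lines, and T-cell markers. Genes whose call was lost when any 1 array was left out are counted but not named, apart from HSP90AB1 and SERPINH1. Of the genes the rule names, 1 is not reported here and was left out of its list. The lists and named genes were chosen with earlier results of these data known, so no list was tested as a set. The fit was tested on simulated data. Alternatives covered background, scaling, filter, probe choice, slide, test and each left-out array.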

Additional observations from a re-analysis of the deposited data

Results flagged for a closer look

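Among the 6 exposed Jurkat arrays, 1 array stood far from the others for 4 of 172 genes and 3 of 44 list medians examined, where chance alone marks about 1 in 20. SNORD36C stood at 7.01 on CSE replicate 1, with the next array at 6.01. FARSB reached 13.5 on CSE replicate 5 (next 12.9), and HMOX1 6.48 on the same array (next 5.34). FAM43A, not detected in Jurkat, stood at 4.55 on CSE replicate 1 (next 4.44). The median difference from the control mean was 0.195 on CSE replicate 6 for the NF-kB list (next 0.0193), 0.233 on CSE replicate 3 for the thioredoxin list (next 0.0738) and -0.0908 on CSE replicate 6 for the bowel disease list (next -0.156).

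For 81 of the 172 genes the change in Jurkat differed from that in DLD-1 in limma, against 1041 of 16028 (6.49%) over all genes. The 172 were chosen partly by their Jurkat change and partly by this same difference, so the 2 shares are not comparable. The value in brackets is the Jurkat change minus the DLD-1 change on the log2 scale. Among small RNAs and histones it was higher in Jurkat for RNU1-5 (2.88), RNU1-3 (2.64), RNU1-4 (2.64), RNU1-1 (2.63), RNU11 (2.50), RNU4-1 (1.5), RNA5S9 (2.85), RPPH1 (2.18), RMRP (2.23), RN7SK (2.53), VTRNA1-1 (1.17), RNY1 (1.17) and H2AC17 (1.63). The snoRNAs split into SNORD3A (2.97), SNORD3D (2.84), SNORD46 (1.99), SNORD56 (1.53), SNORD55 (0.99) and SNORD25 (0.99) on the higher side and SNORA25 (-1.66), SNORA33 (-1.59), SCARNA9 (-1.17), SNORD36C (-1.05) and SNORA73A (-1.03) on the lower.

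Among stress and growth genes the Jurkat change was higher for ID2 (4.40), GADD45B (3.16), TXNIP (1.51), ZFP36L1 (1.43), PPM1D (0.87), FARSA (0.84), BAG6 (0.68), STUB1 (0.56) and NUAK2 (1.43). It was lower for CYP1A1 (-4.35), HMOX1 (-3.97), FAM43A (-2.11), KLF2 (-2.13), CDK6 (-1.35), MYC (-1.28), XIAP (-1.40), HSPA1A (-1.20), BCL2 (-1.14), MGA (-0.93), BAG5 (-0.66), PSMD12 (-0.66), FARSB (-0.64) and ERO1A (-0.56). The probes used for CYP1A1, FAM43A and NUAK2 were detected on no Jurkat array.

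T-cell and immune genes differed as well. The Jurkat change was lower for BCL11B (-1.73), RUNX1 (-1.71), TAL1 (-1.11), NFATC2IP (-1.06), BACH2 (-1.05), ITGA4 (-1.01), CXCR4 (-0.92), THEMIS (-0.88) and TNFSF15 (-0.87) and higher for IRF3 (0.81), CD5 (0.61), IFITM1 (0.60) and PTCRA (0.57). Of the other genes it was higher for ZNF77 (1.10), ZNF57 (1.04) and ZNF408 (0.59) and lower for ZNF264 (-1.92), ZNF286C (-1.26), ZNF493 (-1.18), ZNF674 (-0.51), AFF4 (-1.21), RPL7L1 (-0.91), ONECUT2 (-1.52), ALG10B (-1.38), AKAP11 (-1.37), LRRC58 (-1.83) and TMEM181 (-1.13). The array entries MIR1978 (-2.15), LOC100131139 (-1.83), LOC100134241 (-1.64), LOC100133840 (-1.62), LOC728452 (-1.61), LOC100190986 (-1.45) and LOC728499 (-1.39) had lower changes in Jurkat too.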

How the results depend on the processing

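Of the alternatives for the whole gene table, 2336 to 3724 genes passed in fits over all slides, against 3184 as reported, and 728 to 1347 differences from DLD-1, against 1041. With fewer arrays per fit, slides 3, 4 and 5 alone gave 966, 417 and 481 genes, 1158, 576 and 655 probes, and 5, 169 and 0 differences in limma (1354, 2407 and 1210 at an unadjusted p under 0.05). The exact rank test on the 18 Jurkat arrays called 2696 probes, against 4096 as reported. Leaving out 1 array gave 2436 to 3198 genes, 3128 to 4153 probes and 620 to 1097 differences. Of the 162 named genes that passed, all kept their direction in every setting except ALG10B, whose value was 0.15 among probes detected on all 18 arrays, where another probe stands for the gene. In the authors' normalized values 81 of the 162 changes were over 1.5 times smaller and none over 1.5 times larger, with HSPA6 at 3.19 against 5.02 (3.83 with normexp at an offset of 50 and 3.48 with no background correction), RMRP at 0.92 against 2.22 and XIAP at -0.37 against -1.22. With the 18 Jurkat arrays alone in the fit the calls of CANX, HRK, HSP90AB1 and S1PR1 were lost, with the mean of all probes those of APAF1, ORC6, PSMD12 and TAP2, and with scaling to the median of probes detected everywhere those of CCR6 and S1PR1. Scaling over all probes, an alternative added after the data were seen, kept the call of 144 of the 162, the exact rank test 147 and the slide as a block 162. The rank test lost ADM, CANX, CASP2, CD69, CDKN1A, EIF2S1, ERO1A and GATA3. It also lost HRK, HSP90AB1, HSPH1, S1PR1, SERPINH1, SLA and TNFSF15. Scaling over all probes lost ATP5F1E, BAG6, CD5, COX6A1, FARSA, GABARAPL1, GRAP2, GSS and HLA-E. This scaling also lost HRK, IFITM1, IRF3, KDM3A, NDUFS7, PSMB8, PSMD4, STUB1 and TRA2B. Without the array whose cell line field names DLD-1, 3122 genes passed. All 162 kept their call there, but this could hardly come out otherwise. Genes whose call was lost without any 1 array were not named, apart from HSP90AB1 and SERPINH1. No paired analysis was possible because the labels number no replicates across groups. Low signal limits the reading of probes detected in 1 group only.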

Other observations

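Sorted by the gene type that RefSeq gives each entry, the Jurkat response leaned in different directions. Of 12198 protein-coding genes 8.25% rose and 12.5% fell with CSE, and of 334 long non-coding RNAs 9.28% rose and 12.0% fell. Pseudogenes leaned the other way, with 11.7% of 818 higher and 3.55% lower (median 0.10), while transcribed pseudogenes had 5.31% of 320 higher and 11.2% lower. A probe to a pseudogene can also read its parent gene, and the parents' part in these shares was not tested. Of 54 entries for microRNA genes 4 rose and 3 fell. All 13 small nuclear RNA entries and 2 of 3 ribosomal RNA entries rose.

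Genes listed as markers of other blood lineages gave a few values of their own. Of 7 measured monocyte and B-cell markers 1 passed higher and 2 lower, against 8.3% and 11.6% of all genes. CD79A, a chain of the B-cell receptor, did not pass and averaged 8.34 on the log2 scale with CSE and 7.77 in controls. CD14 averaged 5.86 and 5.28, detected on 5 of 6 exposed and 8 of 12 control arrays. CD68, a lysosomal protein of macrophages, averaged 6.87 and 7.47. FCGR3A, an Fc receptor, averaged 5.36 and 5.96, detected on 2 of 6 exposed and 11 of 12 control arrays. In DLD-1 controls the averages of these genes were 4.97, 6.36, 7.15 and 5.29, so CD14, CD68 and FCGR3A are not particular to Jurkat.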
